A study of Saccharomyces cerevisiae with 4 samples.

Results

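The large (60S) subunit of the yeast ribosome is built in the nucleolus and nucleoplasm by a cohort of proteins that bind the precursor of its ribosomal RNA, refold and modify it, bring in ribosomal proteins and leave again before translation. RNA helicases, methyltransferases, GTPases and placeholder proteins act in turn, and the last factors travel with the particle to the cytoplasm. Their genes belong to the ribosome biogenesis regulon of budding yeast, whose messages are known to rise in rich medium and fall together under stress. The 50 genes described here are 60S assembly factors picked by name. Each of them matched exactly 1 row of the 7130 rows in the deposited expression table.

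RNA came from Saccharomyces cerevisiae in log phase at an optical density of about 0.8 in enriched medium. There were 4 libraries of total RNA depleted of ribosomal RNA, 2 from wild type (WT) and 2 from the genotype Asr1-RING, a mutant in the RING domain of Asr1. Asr1 is a RING-type ubiquitin ligase known to modify RNA polymerase II. The labels name no background strain, no exact residue change and no separate cultures, so the p-values below reflect the scatter of these libraries alone, which may be technical. Values are FPKM (fragments per kilobase of transcript, scaled to the mapped fragments of each library), a level relative to the other RNA in a library, so RNA per cell cannot be read from them.

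Depth per library was estimated at 40900000 to 47400000 fragments from the steps of low values. At that depth even the lowest member rested on an estimated 223 fragments in its lowest library. ASR1 itself had 7.05 and 6.34 FPKM in the WT libraries against 4.99 and 5.39 FPKM in the mutant ones (log2 difference -0.31 by limma, adjusted p = 0.157), and a change within the RING domain need not show in such a value. Mating-type markers were those of alpha cells in every library, with MF(ALPHA)2 at 4049 to 4302 FPKM, the lowest alpha marker STE3 at 337.2 to 385.1 FPKM and the 6 a-cell markers at 2.4 to 67.2 FPKM. Of 10 stress-induced genes, HSP26, a small heat-shock protein, was the only one called, at 11.9 and 13.5 FPKM in the WT libraries against 23.2 and 27.0 FPKM in the mutant ones (limma adjusted p = 0.00981, and 0.109 without WT replicate 1, 0.0531 without WT replicate 2 and 0.0636 with no filter). Of these 10 genes, 6 lay above 0 and 4 below (log2 differences of -0.38 to 0.93), and 1.95% of ORF rows were called higher. Short RNAs took a smaller part of the summed FPKM in the mutant. Rows named as snR genes, LSR1 or NME1 took 55.1% and 51.5% of that sum in WT, against 45.7% and 44.8% in the mutant. The part of this shift in the values below was not tested. The summed FPKM of open reading frames (ORFs) lay between 1843982 and 1877803 in all 4 libraries.

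Most of the 50 genes carry known elements of their regulon in their promoters. PAC and RRPE are promoter elements known from yeast ribosome biogenesis genes. The members were picked from that class, so high shares here are no independent result. PAC is known as the target of the repressors Dot6 and Tod6, and RRPE as that of Stb3. The 6-letter core of PAC, GATGAG, and the 8-letter core of RRPE, AAAATTTT, were searched on both strands from 250 bases before to 50 bases after the start codon. The cores cannot overlap each other, while PAC cores that overlap among themselves count separately. The PAC core was in 46 of the 50 promoters (92%) and in 20.4% of 6001 protein-coding promoters. The RRPE core was in 41 (82%) against 9.03%, and both were in 37 (74%) against 4.38%. None of the 50 promoters lacked both.

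The stretches below run from 12 bases before the first core to 12 bases after the last core upstream of the start codon, cut at the edges of the window. They are printed 5′ to 3′ toward the gene with the cores in capitals (CTCATC is the PAC core on the other strand). They come from the RefSeq sequence and annotation of the build R64, located by gene identifier and not by the coordinates of the deposited table. The first 9 show promoters with both cores and the last 2 show promoters with 1.
ARX1 (chrIV:657525-657597, reverse strand): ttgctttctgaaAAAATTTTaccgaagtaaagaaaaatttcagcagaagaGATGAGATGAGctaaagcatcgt
NOP7 (chrVII:695264-695332, forward strand): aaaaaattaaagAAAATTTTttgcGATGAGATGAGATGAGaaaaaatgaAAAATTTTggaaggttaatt
ERB1 (chrXIII:370593-370647, reverse strand): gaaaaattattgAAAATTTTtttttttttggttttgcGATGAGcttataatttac
YTM1 (chrXV:832632-832729, forward strand): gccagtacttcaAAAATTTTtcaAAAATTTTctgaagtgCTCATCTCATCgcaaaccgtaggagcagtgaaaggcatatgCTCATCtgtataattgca
HAS1 (chrXIII:851675-851769, reverse strand): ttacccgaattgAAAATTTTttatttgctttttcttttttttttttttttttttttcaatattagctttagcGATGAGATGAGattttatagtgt
NOG1 (chrXVI:370823-370887, forward strand): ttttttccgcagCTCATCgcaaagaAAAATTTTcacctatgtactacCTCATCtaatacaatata
RRB1 (chrXIII:534784-534869, reverse strand): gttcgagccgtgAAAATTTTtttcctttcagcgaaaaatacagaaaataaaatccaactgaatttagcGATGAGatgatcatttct
EBP2 (chrXI:125622-125696, forward strand): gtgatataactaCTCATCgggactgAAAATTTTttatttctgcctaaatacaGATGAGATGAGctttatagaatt
RRP8 (chrIV:611964-612003, forward strand): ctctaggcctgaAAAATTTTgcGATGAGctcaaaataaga
NOP16 (chrV:156686-156715, forward strand): agaaaaataggcGATGAGataaatttataa
RIX1 (chrVIII:493772-493803, forward strand): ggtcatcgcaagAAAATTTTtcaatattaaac
In the promoter of NOP7 a run of 3 overlapping PAC cores lies between RRPE cores. ERB1 and YTM1, whose products form a complex with Nop7, hold 1 and 3 PAC cores and 1 and 2 RRPE cores. NOP16 holds a PAC core and no RRPE core, and RIX1 the reverse.

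Wholly upstream of the start codon the members held 77 PAC cores, with first bases from -243 to -41, a median of -121 and quartiles of -142 and -101. They held 47 RRPE cores, with first bases from -247 to -85, a median of -141 and quartiles of -159 and -119. Positions in other promoters were not compared. In RRP14, DBP7 and REI1 a further PAC match takes in the start codon itself. In every one of the 6 genes of the A3 cluster and the 3 GTPase genes both cores were found, and in 8 of 15 genes of early nucleolar assembly. Among other ribosome assembly genes the PAC core was in 58 of 63 small-subunit assembly genes (92.1%) and the RRPE core in 46 (73%). In 39 further 60S factors the shares were 76.9% and 64.1%. Promoters of 82 ribosomal protein genes of the large subunit held them in 9.76% and 7.32%. A match is a run of letters and no proof of a bound site.

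**Figure D1:**
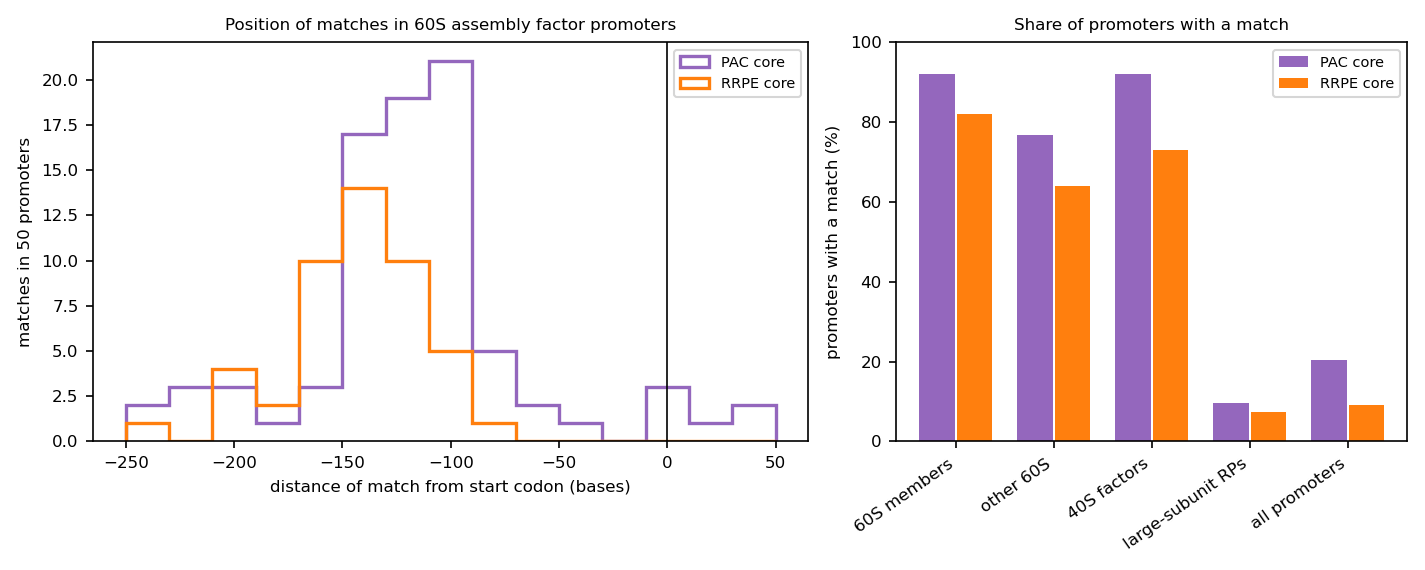
The left panel counts matches of the PAC and RRPE cores in the 50 promoters by distance of the first base from the start codon, in bins of 20 bases. The right panel gives the percentage of promoters with a match in 5 sets of genes, and the 60S members stand at 92% and 82% against 20.4% and 9.03% of all promoters.

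The mean level of the 50 genes over the 4 libraries ran from 5.61 to 612.6 FPKM with a median of 34.5 FPKM, against 20.6 FPKM for all ORF rows tested. FPKM is per length, so these levels were set side by side between genes. That comparison is uncertain for rows that overlap, resemble each other or hold an intron, since their counting is not known. DBP2, with an intron, and SSF1, with a near copy, are such rows, as described below. TIF6 (YPR016C, chromosome XVI, 592329 to 593066), the factor known as eIF6 in mammals that keeps the subunits from joining, stood far above the rest. It had 638.0 and 595.2 FPKM in the WT libraries against 620.3 and 596.9 FPKM in the mutant ones. The next highest was the helicase gene DBP2, with 137.2 and 130.0 FPKM in the WT libraries against 147.6 and 176.7 FPKM in the mutant ones. At the bottom were RRP14, at 7.07, 4.94, 5.93 and 4.50 FPKM in WT replicates 1 and 2 and Asr1-RING replicates 1 and 2, and NOP8, at 6.59, 5.83, 6.59 and 5.83 FPKM in the same order. Both code for nucleolar proteins of early 60S particles, and they lay at percentiles 13.2 and 15.5 of the ORF rows.

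**Figure D2:**
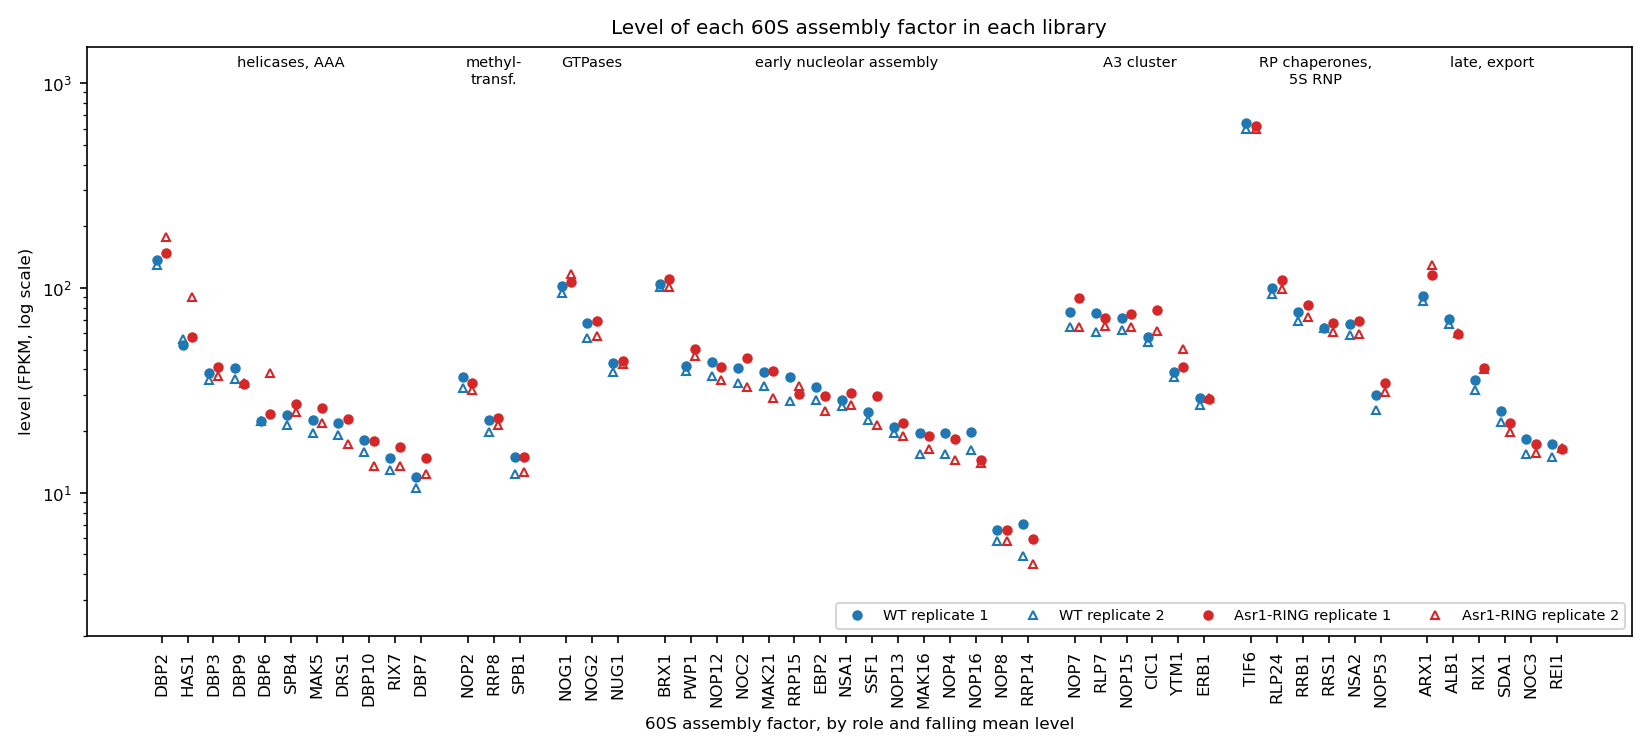
Level of each of the 50 genes in FPKM on a log axis, one point per library (filled circles replicate 1, open triangles replicate 2, blue WT, red Asr1-RING), grouped by role. TIF6 stands alone near 600 FPKM, NOP8 and RRP14 lie lowest, and in most genes replicate 1 lies above replicate 2 in both groups.

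Genes whose products work in 1 complex were not always at 1 level. The complex of Nop7, Erb1 and Ytm1 is needed to process the spacer ahead of the 5.8S RNA. Of its genes, NOP7 had 76.1 and 64.6 FPKM in WT, ERB1 28.9 and 26.7 FPKM, and YTM1 38.9 and 36.7 FPKM. SSF1 and RRP15, whose products sit together with Rrp14 on early particles, had WT means of 23.7 ± 1.46 and 32.3 ± 6.13 FPKM (SD, n = 2), both above the RRP14 values just given. MAK21 and NOC2, which form a complex, were close, at 36.1 ± 4.11 and 37.5 ± 4.46 FPKM in WT (SD, n = 2). ARX1 and ALB1, which act together in nuclear export of the subunit, had 89.3 ± 3.54 and 68.5 ± 3.18 FPKM in WT (SD, n = 2).

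No member was called different between Asr1-RING and WT. A row was called where the Benjamini-Hochberg adjusted p of limma's moderated test on log2(FPKM + 1) over all 6892 rows was under 0.05. Of all rows tested, 1.89% were called higher and 4.95% lower in Asr1-RING, and of the 6517 ORF rows 1.95% were called higher and 0.921% lower. With 50 members, 0 calls lie near that background. Without adjustment, 3 members (ARX1, RIX1 and PWP1) had p under 0.05 and were higher (6% of the 50, against 15.4% of ORF rows). On the lower side it was 1 member, NOP16 (2%, against 7.64% of ORF rows). Taken in both directions, these 4 members became 1 with no intensity trend, 6 after quantile normalization and 7 with the replicate block. The number also changed with a library left out. Shares of ORF rows were not counted in these settings, so the changes are not read as a trait of the members. The median log2 difference of the members was 0.05 (quartiles -0.02 and 0.16), and that of all ORF rows was 0.03 (quartiles -0.12 and 0.19).

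Within the main test the differences were also bounded, by intervals that hold the scatter of the libraries and not the choice of scaling. After quantile normalization TIF6 had a log2 difference of 0.31, outside its main interval of -0.25 to 0.21. The folds here are of FPKM + 1, and each interval holds for its gene alone. Adding 1 narrows the differences of low genes: that of DBP6 was 0.43, against 0.45 with a pseudocount of 0.1. The 95% interval of the log2 difference stayed within a 2-fold change either way in all 50 members, and within a 1.5-fold change in 44 of them. Of the 6517 ORF rows, 6255 stayed within 2-fold and 4776 within 1.5-fold. The 6 whose interval reached past 1.5-fold were ARX1, DBP6, HAS1 and CIC1 on the higher side and NOP16 and RRP14 on the lower. Both mutant libraries lay above both WT libraries in 12 members (24%, against 34.8% of ORF rows) and below both in 4 (8%, against 23.7% of ORF rows). In the other 34 the groups overlapped.

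**Figure D3:**
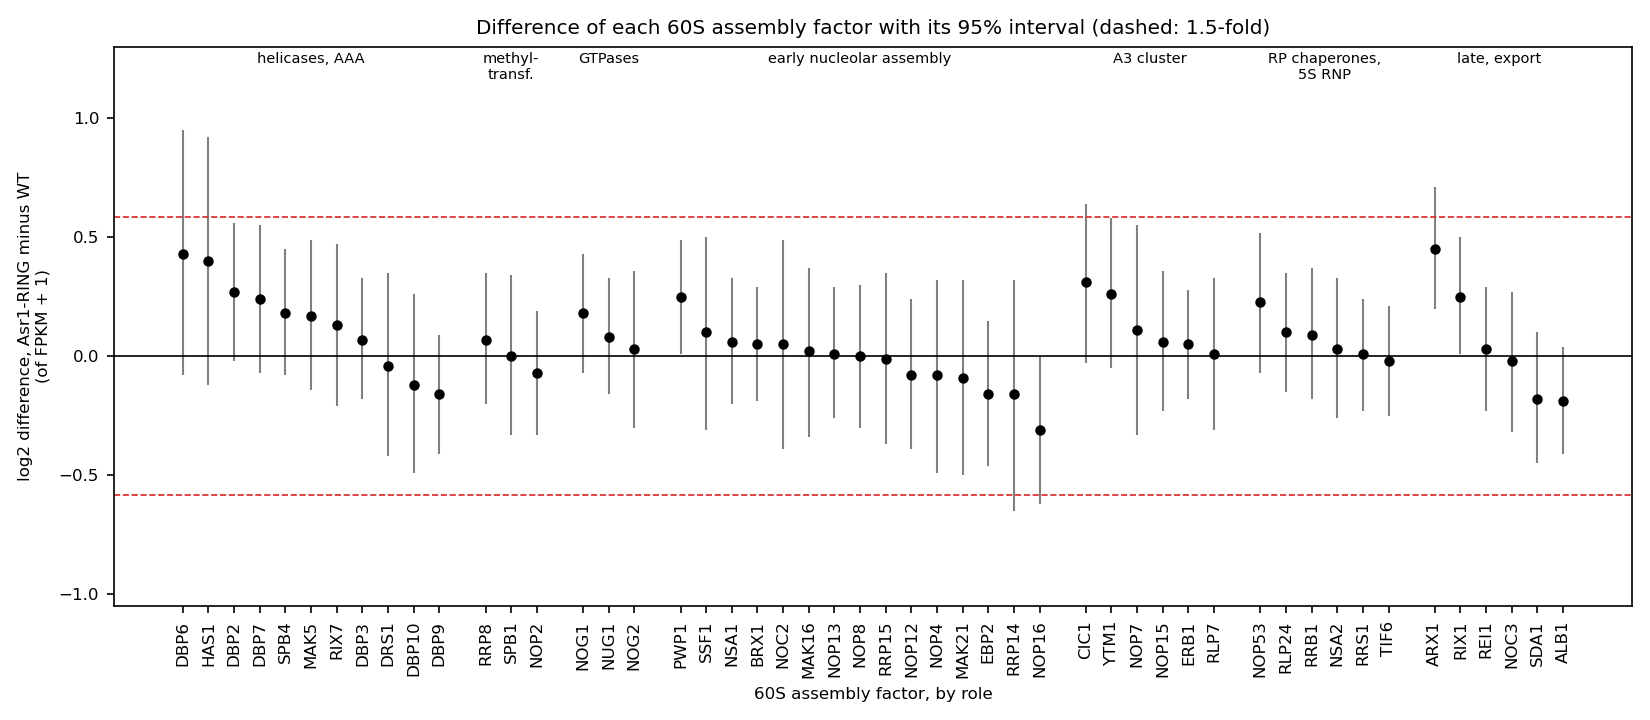
Log2 difference of each gene, Asr1-RING minus WT, on the scale of FPKM + 1, with limma's 95% interval, grouped by role. Dashed lines mark a 1.5-fold change, and 44 of the 50 intervals lie between them.

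The export factor ARX1 (YDR101C, chromosome IV, 655684 to 657465) came nearest to a call. It had 91.8 and 86.8 FPKM in the WT libraries against 115.7 and 129.9 FPKM in the mutant ones, so both mutant libraries lay above both WT libraries. The mean was 1.37 times that of WT, with a log2 difference of 0.45 (SE 0.102, 95% interval 0.20 to 0.71, limma adjusted p = 0.0597). It passed the threshold when rows under a mean of 10 FPKM were dropped (adjusted p = 0.0458), with robust moderation (adjusted p = 0.0408) and without Asr1-RING replicate 1 (adjusted p = 0.0156). Its adjusted p over the alternatives ran from 0.0156 to 0.34, the latter without WT replicate 1.

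The other genes of nucleoplasmic maturation, export and recycling gave values on both sides of 0. RIX1, of the complex that checks nucleoplasmic particles, had 35.5 and 31.9 FPKM in the WT libraries against 40.7 and 40 FPKM in the mutant ones (log2 difference 0.25, adjusted p = 0.175). ALB1, the partner of ARX1, had 70.8 and 66.3 FPKM in the WT libraries against 59.7 and 60.5 FPKM in the mutant ones (log2 difference -0.19, 95% interval -0.41 to 0.04, adjusted p = 0.26). ALB1 thus lay lower in both mutant libraries while ARX1 lay higher. REI1, which helps to strip Arx1 in the cytoplasm, had 17.3, 15.0, 16.4 and 16.5 FPKM across WT and then Asr1-RING, and its groups overlapped. NOC3 and SDA1 were at 15.4 to 25.1 FPKM with log2 differences of -0.02 and -0.18.

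Among the helicases and the AAA ATPase Rix7, the median log2 difference over 11 genes was 0.17, and 8 of the 11 lay above 0 (7 with median centring and 8 after quantile normalization). With either scaling the median was 0.10, and with a library left out it ran from 0.06, without Asr1-RING replicate 1, to 0.27, without WT replicate 1. DBP6 (YNR038W, chromosome XIV, 695598 to 697487), a helicase of the earliest particles, had 22.3 and 22.4 FPKM in the WT libraries against 24.2 and 38.3 FPKM in the mutant ones. HAS1, a helicase used in both subunits, had 52.9 and 56.4 FPKM in the WT libraries against 57.9 and 90.6 FPKM in the mutant ones. In both genes Asr1-RING replicate 2 stood apart, and replicate 1 lay close to WT. Their log2 differences were 0.43 (95% interval -0.08 to 0.95, adjusted p = 0.25) and 0.40 (95% interval -0.12 to 0.92, adjusted p = 0.283). HAS1 shares 170 bases with YMR290W-A, which had 57.3, 57.5, 59.9 and 84.6 FPKM in the same order, and reads of overlapping rows cannot be told apart here.

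DBP2, a helicase that also acts on messenger RNA, was higher in both mutant libraries, with a log2 difference of 0.27 (95% interval -0.02 to 0.56, adjusted p = 0.21). DBP9 went the other way, at 40.7 and 36.1 FPKM in the WT libraries against 34.1 and 34.2 FPKM in the mutant ones (log2 difference -0.16, adjusted p = 0.354). The remaining helicase genes and RIX7 had log2 differences of -0.12 to 0.24. Without Asr1-RING replicate 1, ARX1, DBP2, DBP6, HAS1 and YTM1 had log2 differences of 0.54, 0.40, 0.75, 0.72 and 0.41. Asr1-RING replicate 2 was then the lone mutant library, assumed to vary like WT. Calls in that fit were spread over rows of all kinds and are not read as a result about these genes. HAS1 and YTM1 were named for their calls in it after their values were seen.

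All 6 genes of the A3 cluster, which act on the spacers around 5.8S RNA, had differences above 0, of 0.01 to 0.31 on the log2 scale. With median centring 3 of the 6 lay above 0, and after quantile normalization 2. Without WT replicate 2 the count was 2 and without Asr1-RING replicate 1 it was 3. CIC1 had 57.4 and 54.5 FPKM in the WT libraries against 78.4 and 61.6 FPKM in the mutant ones (log2 difference 0.31, 95% interval -0.03 to 0.64, adjusted p = 0.217). It was called without Asr1-RING replicate 2 (log2 difference 0.48, adjusted p = 0.0403), the library in which it was nearer to WT. YTM1 had 40.9 and 50.6 FPKM in Asr1-RING, above both WT values (log2 difference 0.26, adjusted p = 0.254). NOP7 had 89.3 and 64.2 FPKM in Asr1-RING, 1 above and 1 below both WT values. RLP7, related to the ribosomal protein Rpl7, had 75.5, 60.7, 71.0 and 65.5 FPKM and a log2 difference of 0.01.

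The 15 genes of early nucleolar assembly had a median log2 difference of 0.0004, that of NOP8, with 8 above 0 and 7 below. This split was 13 and 2 without WT replicate 1 (median 0.08), and 12 and 3 without Asr1-RING replicate 2 (median 0.11). It was 4 and 11 without WT replicate 2 (median -0.14), and 2 and 13 without Asr1-RING replicate 1 (median -0.13). With median centring it was 2 and 13 (median -0.07), and after quantile normalization 4 and 11 (median -0.05). PWP1, a WD-repeat protein, had 41.8 and 39.4 FPKM in the WT libraries against 50.3 and 46.5 FPKM in the mutant ones (log2 difference 0.25, adjusted p = 0.178). NOP16 had the lowest difference of the 50, at 19.8 and 16.1 FPKM in the WT libraries against 14.5 and 13.9 FPKM in the mutant ones (log2 difference -0.31, adjusted p = 0.184). Its partners in the particle gave no common direction. MAK5 had a log2 difference of 0.17 and EBP2 one of -0.16, and the groups overlapped in both. BRX1, at 104.0, 100.5, 110.8 and 100.6 FPKM, was the highest of this group and differed by 0.05.

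The GTPase genes NOG1, NOG2 and NUG1 differed by 0.18, 0.03 and 0.08 on the log2 scale. NOG1 had 102.4 and 94.7 FPKM in the WT libraries against 106.6 and 116.9 FPKM in the mutant ones (adjusted p = 0.309). The intron of NOG2, 532 bases long, hosts the small nucleolar RNA SNR191. Of all 6892 rows 341 were called lower in Asr1-RING, but of the 6517 ORF rows 60, so most such calls were of other RNAs. Whether SNR191 fell more than such rows was not tested. The SNR191 row fell from 15021 ± 1440 to 10006 ± 738 FPKM (SD, n = 2, log2 difference -0.58, limma adjusted p = 0.0442). That call was lost after quantile normalization (log2 difference -0.13, adjusted p = 0.396), with no filter (0.111), with no intensity trend (0.0505) and with any 1 library left out (0.0526 to 0.192). NOG2 had 67.6 and 57.1 FPKM in the WT libraries against 69.2 and 58.4 FPKM in the mutant ones, with overlapping groups (95% interval -0.30 to 0.36).

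The 3 methyltransferase genes differed by -0.07 to 0.07 on the log2 scale, and their groups overlapped. NOP2, which methylates a cytosine of 25S RNA, had 36.9 and 32.6 FPKM in the WT libraries against 34.2 and 31.9 FPKM in the mutant ones (log2 difference -0.07, 95% interval -0.33 to 0.19). RRP8, which methylates an adenine, differed by 0.07, and SPB1, which methylates a ribose, had an interval of -0.33 to 0.34. Of the chaperones, placeholders and 5S particle factors, NOP53, which guides the exosome to the spacer, was highest in difference, at 30 and 25.4 FPKM in the WT libraries against 34.2 and 30.9 FPKM in the mutant ones (log2 difference 0.23, adjusted p = 0.283). TIF6 had the lowest, -0.02 (95% interval -0.25 to 0.21). RRB1, the chaperone of Rpl3, RLP24, the placeholder of Rpl24, RRS1, which seats the 5S particle, and NSA2 differed by 0.01 to 0.10.

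Replicates of a group differed in a common direction over the 60S genes. WT replicate 1 exceeded WT replicate 2 in 48 of the 50 genes (96%), against 66.6% of ORF rows, and the exceptions were HAS1 and DBP6. The median ratio of these libraries was 1.13 over the members and 1.04 over ORF rows. Asr1-RING replicate 1 exceeded replicate 2 in 39 members (78%), against 51.6% of ORF rows, with median ratios of 1.11 and 1.01. The 11 exceptions include ARX1, DBP2, DBP6, HAS1, NOG1 and YTM1. The summed FPKM of the 50 genes was 2760 and 2510 for WT against 2853 and 2726 for the mutant, so WT replicate 1 lay between the mutant libraries. The 50 genes share their libraries and are not replicates of the mutation. Of 63 small-subunit assembly genes 57 (90.5%) were likewise higher in WT replicate 1, against 28 of 82 large-subunit ribosomal protein genes (34.1%). The group differences with each library left out are given next, and the part of this shift in them was not tested.

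**Figure D4:**
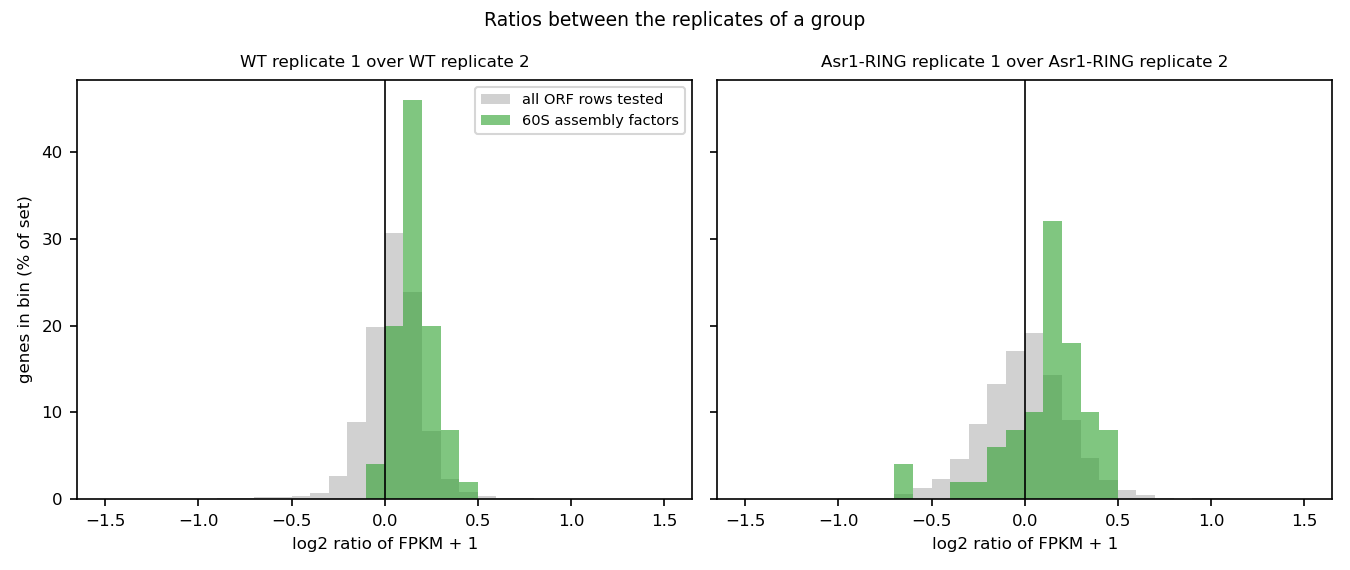
Log2 ratio of replicate 1 to replicate 2 of each group on the scale of FPKM + 1, as the percentage of genes in bins of 0.1. The 60S assembly factors (green) lie to the right of all ORF rows (grey) in both groups, with 48 and 39 of 50 genes higher in replicate 1.

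The split of the 50 differences around 0 changed with the library left out and with the scaling, and part of the change was common to all ORF rows. By the main test 35 members (70%) lay above 0 with a median of 0.05, against 55.5% of ORF rows with a median of 0.03. Median centring shifts every row alike and took the members to 19 (38%, median -0.03) and ORF rows to 42.4% (median -0.04). After quantile normalization it was 22 members (44%, median -0.02) against 54.7% of ORF rows (median 0.03). Without WT replicate 1 it was 44 members (88%, median 0.15) against 61.3% of ORF rows (median 0.06). Without Asr1-RING replicate 2 it was 43 members (86%, median 0.11) against 57.9% of ORF rows (median 0.04). Leaving out WT replicate 2 or Asr1-RING replicate 1 gave 21 members each (42%, medians -0.03 and -0.04) against 49.8% and 52.1% of ORF rows (medians -0.002 and 0.02). The members thus lay above the ORF share in some settings and below it in others.

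Other genes of the pathway were not called either. Of ORF rows, 1.95% were called higher and 0.921% lower. Of 39 further 60S assembly factors none was called by limma, and the median log2 difference was 0.10. With an unadjusted p under 0.05, 9 were higher (23.1%, against 15.4% of ORF rows) and 1 was lower (2.56%, against 7.64%). The smallest p was that of ARB1, an ATPase of ribosome assembly, at 254.5 and 266.6 FPKM in the WT libraries against 339.5 and 397.3 FPKM in the mutant ones (log2 difference 0.49, adjusted p = 0.0594). Of 63 small-subunit assembly genes none was called by limma, and their median was 0.08. With an unadjusted p under 0.05, 12 were higher (19%) and 1 was lower (1.59%). That lower gene was ECM16, a helicase of the small-subunit processome, at 15.6 and 13.5 FPKM in the WT libraries against 10.5 and 8.31 FPKM in the mutant ones (log2 difference -0.58, adjusted p = 0.0714).

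Of 82 large-subunit ribosomal protein genes none was called by limma, and the median was 0.07. With an unadjusted p under 0.05, 10 were higher (12.2%, against 15.4% of ORF rows) and 4 lower (4.88%, against 7.64%). RPL19A had the smallest p (log2 difference -0.40, adjusted p = 0.071). Among 12 regulators of these genes, such as SFP1, SCH9, STB3, DOT6 and TOD6, none was called by limma and none had an unadjusted p under 0.05. Their median was 0.16, and KOG1, a subunit of the TOR complex that controls growth, had the smallest p (log2 difference 0.30, adjusted p = 0.247). No difference between these lists and the 60S members was tested.

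Members with both promoter cores were set beside members with 1, with no test. The median log2 difference was 0.03 over the 37 genes with both and 0.10 over the 13 with 1. Their median levels were 38.4 and 24.7 FPKM. Genes of ribosome assembly also lie side by side in 6 places that hold a member. NSA2 and LCP5 on chromosome V start 301 bases apart and face away from each other, as do RRP3 and SSF1 on chromosome VIII, 297 bases apart, so each such pair shares the searched bases in part. The other 4 pairs are UTP9 and RIX1, GRC3 and RIX7, NOG2 and ESF2, and RRP15 and NOC4. GRC3, a kinase of rRNA processing, had means of 23.7 ± 0.177 FPKM for WT against 33.2 ± 4.05 FPKM for the mutant (SD, n = 2, log2 difference 0.46, adjusted p = 0.0714), while RIX7 beside it differed by 0.13 (95% interval -0.21 to 0.47). NOC4 differed by 0.47 and RRP15 beside it by -0.01, and ESF2 by -0.26 and NOG2 beside it by 0.03. UTP9, LCP5 and RRP3 differed by 0.06, -0.08 and 0.10, and the members beside them, RIX1, NSA2 and SSF1, by 0.25, 0.03 and 0.10. None of these genes was called.

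Some values are uncertain for the way rows overlap or resemble each other. SSF1 matches SSF2 at 92.07% identity over 1362 bases, its whole coding length, so fragments may be split between them. SSF1 had 24.7, 22.7, 29.8 and 21.5 FPKM and SSF2 10.5, 9.62, 12 and 10 FPKM, and neither was called. Rows of other ORFs overlap REI1, RRP14, HAS1, NOP13, NOP4 and RRP15, and the strand setting of the counting is not given. YNL174W, over 539 bases of NOP13, had 37.4 to 50 FPKM, above the 19.0 to 22.0 FPKM of NOP13 itself. DBP2 has an intron of 1002 bases, and how introns were counted is likewise not given.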

How the data were processed

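FPKM values for 7130 rows and 4 libraries came as 1 table from the authors. Per the submitters' processing notes TopHat2, Cufflinks and the build sacCer2 were used. Versions, settings and strand handling are not given in the sources. Columns were tied to samples by the description labels, and 0 value columns went unused. Starts in the table count from 0, since 5973 of 6025 ORF rows then have the annotated length, and were raised by 1 base.

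FPKM are not counts, so log2(FPKM + 1) was tested with limma 3.58.1 in R 4.3.3 (with an intensity trend, 3.71 prior and 2 residual degrees of freedom) over 6892 rows whose mean reached 1 FPKM, with Benjamini-Hochberg adjustment. All 50 members passed this filter. The test was also run on simulated data with known changes, whose means and scatter were taken from these libraries. Scatter there was independent between genes, unlike the shifts common to the members here, so no support is drawn from that run. Intervals are limma's, at 95%. Alternatives were other pseudocounts (0.1 and 5), filters, scalings and moderation, a replicate block, ORF rows alone, an adjusted p under 0.1, and each library left out. Depth was estimated as the value at which most low ORF rows held whole fragments within 0.1, after taking 202 bases off each length (85.9% to 90.2% of 51 to 64 rows were whole). A floor of 3 fragments is 0.0793 to 0.0919 FPKM on 1 kb, for counting error only. Promoters and coding sequences came from R64, and copies from BLAST 2.17.0. Tables and plots were made in Python 3.11.15 (matplotlib 3.10.9, pandas 2.3.3, scipy 1.17.1, numpy 2.4.6).

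The members, lists and roles were chosen with earlier results of these data known. Members are named with values where called, where they had 1 of the 3 smallest p, or where they had the highest level or the most positive or most negative difference of their role. In other lists the called genes are named, or else the one with the smallest p. Other genes were named for a role, a sequence, an overlap or a position. The listed names SYO1, ACL4 and UTP25 matched no row by name and were not analysed here.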

Additional observations from a re-analysis of the deposited data

How the results depend on the processing

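Of 15 alternatives, 10 left no member called, as in the main test. The exceptions were 1 member (ARX1) with a mean of at least 10 FPKM, with robust moderation or at an adjusted p under 0.1, and, with a library left out, 0 to 5 members. The largest number came without Asr1-RING replicate 1, the fit in which the most rows of all kinds were called. The exception without Asr1-RING replicate 2 was CIC1. No member was called lower in any alternative. The members' median log2 difference, 0.05 by the main test, ranged from -0.04 to 0.15. Over all rows, 130 were higher and 341 lower. Leaving out 1 library gave 16 (without WT replicate 1) to 781 higher and 197 to 553 lower. The counts were 21 and 182 with no filter and 36 and 23 with ORF rows alone. Higher rows numbered 216 with a mean of at least 10 FPKM, 70 with median centring, 307 after quantile normalization, 256 with robust moderation, 449 at an adjusted p under 0.1 and 237 with the replicate block. The block changed no member's call. Same-numbered libraries share only a number, and their deviations from the group means had a correlation of -0.0712.

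For 20 members followed through 14 alternatives, 252 of 280 values kept direction and side of the threshold, 8 gained a call and 20 changed sign. With median centring the differences of BRX1, NOG2, RLP7 and RRP8 became -0.03, -0.04, -0.06 and -0.001. After quantile normalization those of BRX1, NOG2, NOP7, RLP7 and TIF6 became -0.05, -0.10, -0.01, -0.12 and 0.31. With 1 library left out, BRX1 ranged from -0.02 to 0.11, NOG2 from -0.09 to 0.15, NOP2 from -0.16 to 0.02, NOP7 from -0.12 to 0.34, RLP7 from -0.15 to 0.17, RRP8 from -0.02 to 0.17 and TIF6 from -0.07 to 0.03. HAS1 and YTM1 are among the 20 because they were called with a library left out. That none of the other 30 members was called in any alternative was thus fixed by the choice of the 20. Of these 30, 24 changed sign in at least 1 alternative. The cause was not tested. Folds are given of FPKM + 1 and for each gene alone. With 2 libraries a group, the intervals of the main test leave room for differences of up to 1.5-fold in 44 members and 2-fold in the other 6. They do not hold the choice of scaling, which took TIF6 outside its interval.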
